A study of Drosophila melanogaster with 15 samples.

Results

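Most proteins of the cytoplasmic ribosome of *Drosophila melanogaster* are encoded by genes whose FlyBase symbols begin with RpL for the large subunit and RpS for the small subunit. Members were all genes with such symbols in the annotation, matched to the assemblies through FlyBase gene IDs, and the mitochondrial mRpL and mRpS genes were left out. The symbol alone decided, so genes named -like, such as RpLP0-like and RpL24-like, were included without a check of their function. This gave 92 genes, 54 RpL and 38 RpS, of which 89 had an isoform in at least 1 assembly, among 11848 FlyBase gene IDs in all. In all 3 assemblies, 77 had an isoform, and RpL7-like, RpS10a and RpS15Ab had none under their own IDs.

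The isoforms came from 15 nanopore cDNA libraries of w1118 flies, the same strain in every group. The 6 head libraries came from adults 3 days old, and 4 of them were enriched for cDNA over 3 kb by size selection. For embryos there were 3 libraries aged 14 to 16 h and 3 aged 18 to 20 h from egg laying, each made from 50 embryos. The 3 ovary libraries were made from 20 ovaries each, taken from virgin females 3 days old. The authors pooled the replicates of a tissue, and both embryo ages, into 1 assembly of exon positions without read numbers, so depth per isoform is unknown, no difference between tissues has a replicate check, and tissues were compared without a test. The tissues are mixtures of cell types, and fewer cells of a type cannot be told apart from less RNA per cell. Among marker genes, heads held isoforms of all 7 neuronal genes, embryos of 5 and ovaries of 1. All 6 embryo patterning and cuticle genes were in embryos and also in heads, and none in ovaries. Of 7 germline and eggshell genes listed, 6 could be matched by name, and 5 were in ovaries, 2 in heads and none in embryos. The listed genes without an isoform in ovaries were nos and vas. Of 4 testis genes, 3 were found in heads and none elsewhere, and 3 muscle and 3 fat body genes were all found in every tissue, ovaries included.

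Ribosomal protein genes are expressed in nearly all cells, and their products are needed in equal amounts. Their mRNAs are short and abundant, and in flies and mammals most begin with a run of pyrimidines that starts at a C. In flies the letters TCTTT or close variants around this start form the TCT initiator, a core promoter element used in place of the common Inr element. Several of their introns carry small nucleolar RNAs (snoRNAs), which guide the chemical modification of rRNA.

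Start sequences are shown first, because nearly all isoforms of a gene shared 1 start. Each line below gives the gene, the dm6 coordinates with strand, and then 61 bases, 40 before the most upstream 5′ end of the heads assembly, the 5′ end itself and 20 after it, read 5′ to 3′ on the strand of the gene from the RefSeq copy of the dm6 genome. Capitals mark TCTTT whose C lies within 5 nt of the 5′ end. The choice shows large and small subunit genes, the stalk protein gene RpLP0 and 1 gene without a pyrimidine run (RpS21). It includes RpL10, RpL3 and RpL5, which had the most isoforms in heads. The choice is not representative: most lines hold TCTTT, while 39 of 85 members in heads (45.9%) had it.
RpL3 (chr3R:11221855-11221915, plus strand): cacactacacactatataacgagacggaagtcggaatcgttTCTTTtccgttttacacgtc
RpL4 (chr3R:27922782-27922842, plus strand): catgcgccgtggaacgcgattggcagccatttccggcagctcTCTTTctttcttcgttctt
RpL5 (chr2L:22536630-22536690, minus strand): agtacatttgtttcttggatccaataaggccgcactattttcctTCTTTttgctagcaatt
RpL7 (chr2L:10201061-10201121, plus strand): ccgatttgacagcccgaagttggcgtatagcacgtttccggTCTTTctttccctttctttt
RpL9 (chr2L:11004133-11004193, minus strand): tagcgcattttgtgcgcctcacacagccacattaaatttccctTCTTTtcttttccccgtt
RpL30 (chr2L:19009217-19009277, minus strand): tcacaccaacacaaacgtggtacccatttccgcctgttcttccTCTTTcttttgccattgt
RpLP0 (chr3L:22076053-22076113, plus strand): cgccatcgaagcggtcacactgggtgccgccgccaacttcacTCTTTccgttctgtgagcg
RpS6 (chrX:7901264-7901324, minus strand): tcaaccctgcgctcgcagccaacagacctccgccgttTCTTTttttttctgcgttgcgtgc
RpS9 (chr3L:9511511-9511571, minus strand): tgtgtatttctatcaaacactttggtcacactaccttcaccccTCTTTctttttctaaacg
RpS26 (chr2L:18443208-18443268, minus strand): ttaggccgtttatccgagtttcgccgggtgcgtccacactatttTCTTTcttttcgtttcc
RpL10 (chr3L:23095451-23095511, minus strand): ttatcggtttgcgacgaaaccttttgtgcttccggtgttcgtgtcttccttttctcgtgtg
RpS21 (chr2L:2856031-2856091, plus strand): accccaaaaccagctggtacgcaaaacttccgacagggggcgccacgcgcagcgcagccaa

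Of 85 members with an isoform on the annotated strand in heads, 39 (45.9%) had TCTTT at the most upstream TSS, against 1.47% of all genes in heads. In embryos it was 38 of 80 members (47.5%) against 1.78% of all genes, and in ovaries 39 of 81 (48.1%) against 1.68%. In heads the C lay 2 or 3 nt downstream of the deposited 5′ end in 7 genes each (RpL3, RpL7, RpL4 and RpLP0 among them), 4 nt downstream in 12 (RpL9, RpL30 and RpS9 among them) and 5 nt downstream in 5 (RpL5 and RpS26 among them). RpL32, RpS6 and RpL14 had it 2 nt upstream. Most deposited 5′ ends sat within 1 nt of annotated positions (below), so these distances describe those positions and not single reads. Plus-strand ends, as in RpL3, RpL4, RpL7 and RpLP0, mostly lay 1 nt downstream of the annotated start. Minus-strand ends, as in RpL5, RpL9, RpL30, RpS9 and RpS26, mostly lay on it. The distances were not corrected for this, so those of different strands are not directly comparable.

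The pyrimidine run was more common than the exact letters. From 5 nt before to 10 nt after the most upstream TSS in heads, at least 75% of bases were C or T in 64 of 85 members (75.3%), against 6.29% of all genes, and the median was 81.2% against 56.2%. Position by position, the share of members with a pyrimidine rose from 72.9% at the TSS to 90.6% at 4 nt downstream, where all genes had 51.1%. Both strands were pooled here without correcting for the strand difference of 1 nt given above. RpL10, which encodes a large subunit protein at the subunit interface, had no TCTTT but a pyrimidine run that holds CTTCC. The lowest shares were 37.5% in RpS21 and 43.8% in RpLP0-like, RpS29 and RpS30, whose 5′ ends did not lie in such a run.

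**Figure D1:**
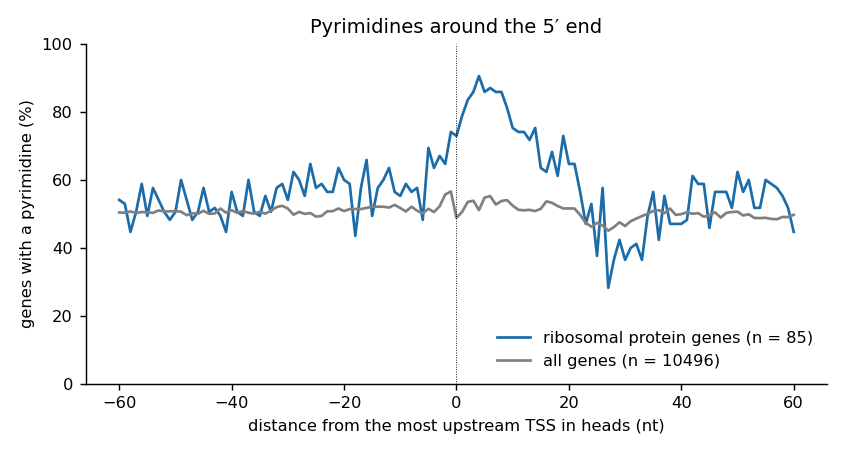
Share of genes with C or T (y axis, percent) at each distance in nt from the most upstream TSS in heads (x axis) for 85 ribosomal protein genes and 10496 genes. Ribosomal protein genes peak at 90.6% at 4 nt downstream, where all genes are at 51.1%. Both strands are pooled without correcting for the difference of 1 nt between their deposited 5′ ends.

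Other core promoter letters were searched on both strands in the 100 nt before the most upstream TSS in heads. The DRE (TATCGATA), bound by the factor DREF, was found in 21 of 85 members (24.7%) against 6.90% of all genes, among them RpL19, RpL36A, RpS7 and RpS24. The core of Motif 1 (GGTCACAC) was found in 10 (11.8%) against 3.75%, among them RpL30, RpLP0, RpLP1, RpS9 and RpS15. TATAAA, the letters of the TATA box, was found in 8 (9.41%) against 17.2%, among them RpL12, RpL37A and RpS3A. The last bases of this window are also in the window searched for TCTTT, and a match is a run of letters only.

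Nearly all members used 1 TSS in every tissue. A TSS ended where the next 5′ end was over 50 nt away, and by this measure 3 of 87 members had several TSSs in heads (3.45%, 95% Wilson interval 1.18 to 9.65), 1 of 80 in embryos (1.25%) and 1 of 82 in ovaries (1.22%). Among all genes it was 17.4% in heads, 12.8% in embryos and 8.42% in ovaries. Wilson intervals here cover only the number of genes counted, not the depth or the replicates. Of the 77 members present in all assemblies, 72 had the same most upstream 5′ base in all of them, and RpL17, RpL32 and RpS6 differed by 1 nt.

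RpL35 was the only member with several TSSs in more than 1 tissue, and had both in all 3. The upstream TSS at chrX:5672402 was used by 2 isoforms in heads and by 1 in each of the others, and the downstream TSS at chrX:5672735 by 4, 1 and 2. Of the pair, only the downstream start had TCTTT in capitals, as the lines below show.
RpL35 upstream (chrX:5672362-5672422, plus strand): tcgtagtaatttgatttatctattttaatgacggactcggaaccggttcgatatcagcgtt
RpL35 downstream (chrX:5672695-5672755, plus strand): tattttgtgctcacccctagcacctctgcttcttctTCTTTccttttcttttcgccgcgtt

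RpL13, a large subunit gene, had a start at chr2L:9967230 in 2 isoforms of heads beside the start at chr2L:9967314 used by the other 7 in heads and by its isoforms in embryos and ovaries. In RpS10b, the other 5′ position in heads belonged to an isoform on the opposite strand. Isoforms of a member shared their 5′ end almost without exception, with 1 position for all isoforms in 78 of 81 members with several isoforms in heads, 17 of 18 in embryos and 40 of 41 in ovaries. Among all genes with several isoforms the shares were 71.0%, 68.6% and 74.1%. In heads, 453 of 499 member isoforms (90.8%) began within 1 nt of an annotated start, in embryos 93.6% and in ovaries 91.8%, so the assemblies carry little information on single bases at starts.

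Isoforms were many in heads and few elsewhere. The 87 members found in heads had 499 isoforms with a median of 5, the 80 in embryos had 109 with a median of 1, and the 82 in ovaries had 158 with a median of 1.5, where all genes had medians of 2, 1 and 1. Several isoforms were found for 81 members in heads (93.1%, 85.8 to 96.8) against 60.4% of all genes, for 18 in embryos (22.5%, 14.7 to 32.8) against 40.7%, and for 41 in ovaries (50%, 39.4 to 60.6) against 32.8%. Members thus lay above all genes in heads and ovaries and below them in embryos.

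Heads were sequenced more deeply, as the study states. Size selection was applied to all 6 embryo and all 3 ovary libraries but left out for 2 of the head libraries. Member mRNAs are short for a selection over 3 kb: their isoforms had median lengths of 777 nt (heads), 755 nt (embryos) and 853 nt (ovaries), where all isoforms had 3613, 4076 and 2603 nt. Tissue, depth and size selection therefore cannot be told apart in any count below. Against only those protein-coding genes whose annotated transcripts were all under 1500 nt, a comparison added after the values were seen, members had several isoforms more often in each tissue, with 92.9% against 40.3% in heads, 19.5% against 9.17% in embryos and 48.1% against 14.4% in ovaries. Against these short genes the shares with several TSSs lay close together in embryos (1.30% of members and 1.33% of short genes) and ovaries (1.27% and 1.58%), and in heads they were 3.57% and 7.02%.

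**Figure D2:**
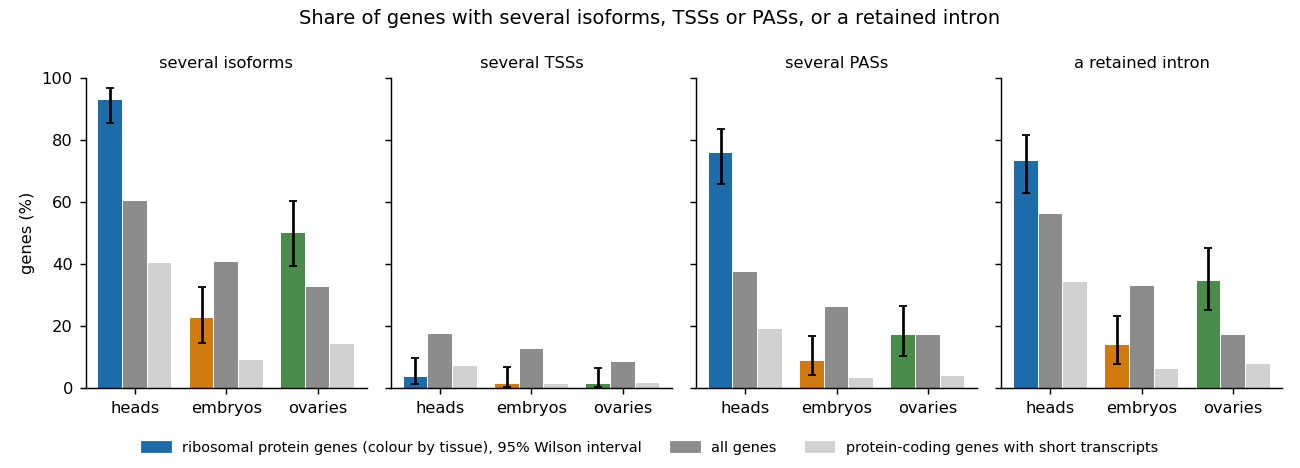
Share of genes (y axis, percent) with several isoforms, several TSSs, several PASs or a retained intron in heads, embryos and ovaries, for ribosomal protein genes with 95% Wilson intervals, all genes and protein-coding genes with every annotated transcript under 1500 nt. Ribosomal protein genes are above both backgrounds in heads for isoforms (93.1%), PASs (75.9%) and retained introns (73.5%), and below all genes for TSSs in heads (3.45%).

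RpL10 had the most isoforms in heads with 26, and had 5 among embryos and 7 among ovaries. RpL3, whose protein lies near the peptidyl transferase centre, had 23, 4 and 7, and RpL5, whose protein carries 5S rRNA into the ribosome, had 15, 3 and 7. RpL12 had 14, 1 and 2.

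RpL15 stood apart from this order, with 10 isoforms in heads and 5 in each of the other tissues. RpL37A had 10, 2 and 3 isoforms in heads, embryos and ovaries, and RpL13 had 9, 1 and 3. The small subunit genes with most isoforms, RpS4, RpS10b and RpS21, had 10 each in heads, with 1 each in embryos and 4, 3 and 1 in ovaries. RpL32, widely used as a reference gene for mRNA quantification in flies, had 7 in heads and a single isoform in each of the others.

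**Figure D3:**
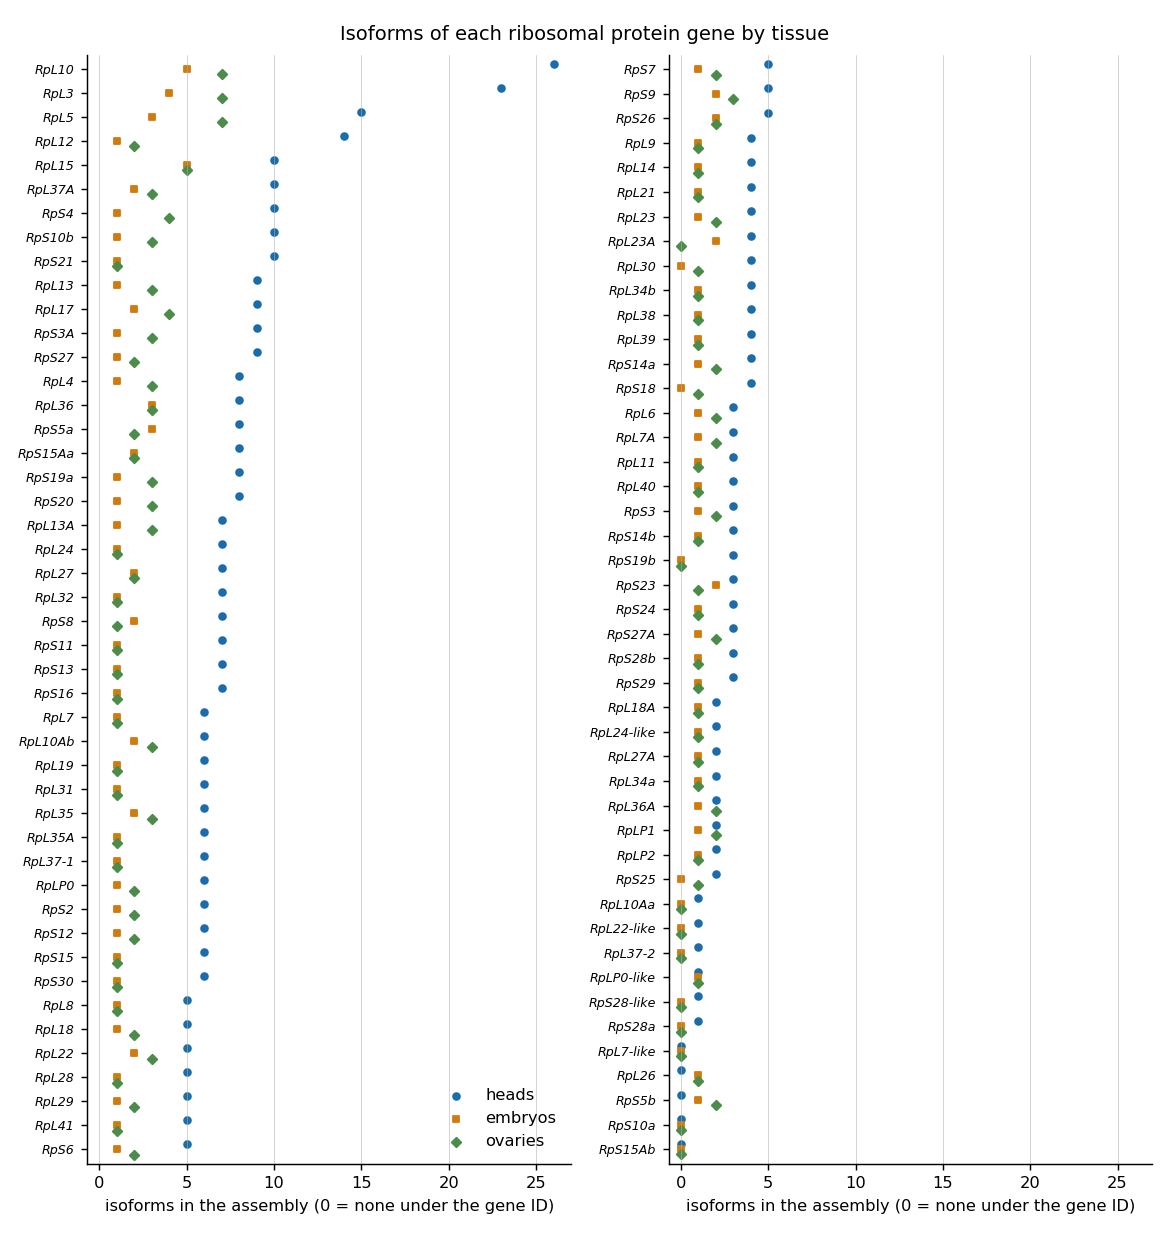
Number of isoforms (x axis) of the ribosomal protein genes (y axis, ordered by heads, with 1 gene not shown) in heads (circles), embryos (squares) and ovaries (diamonds), with 0 for none under the gene's ID. RpL10 (26, 5 and 7) and RpL3 (23, 4 and 7) lead in heads, and most other genes have 1 or 2 isoforms in embryos and ovaries.

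At least 1 isoform was often common to the tissues. Of the 77 members present in all assemblies, 63 (81.8%) had an identical isoform in all 3, against 63.6% of all genes found in all. The exceptions included RpL5, RpL10, RpS3A, RpS23 and RpS29, which recur below for their 3′ ends. Isoforms found in 1 tissue only made up 302 of 499 (60.5%) in heads, 12 of 109 (11%) in embryos and 19 of 158 (12.0%) in ovaries, and 77.3%, 39.4% and 33.7% of the isoforms of all genes.

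Some members lacked isoforms in a tissue under their own ID. RpS5b, a paralogue of RpS5a known for expression in the female germline, had 1 isoform in embryos and 2 in ovaries and none in heads, where a 2991 nt isoform filed under the neighbouring VhaPPA1-1 shared an intron of it and held its whole coding sequence. RpS5a was found in every tissue (8, 3 and 2 isoforms). RpL10Aa, RpL22-like, RpL37-2, RpS19b, RpS28a and RpS28-like were found in heads only, RpS19b with 3 isoforms and the others with 1 each. For RpL10Aa and RpL37-2 this isoform was unspliced and on the opposite strand, so neither had an isoform of its own sense.

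The commonly expressed paralogues were found in all tissues. RpL22 had 5, 2 and 3 isoforms in heads, embryos and ovaries, RpL10Ab 6, 2 and 3, RpS19a 8, 1 and 3, and RpS28b 3, 1 and 1. RpL34a had 2, 1 and 1 and RpL34b 4, 1 and 1, and RpL37-1 had 6, 1 and 1. RpS15Aa had 8, 2 and 2 isoforms, and its paralogue RpS15Ab had none. RpS14a (4, 1 and 2) and RpS14b (3, 1 and 1) are near-identical neighbouring copies, so the division of reads between them is uncertain. RpL24-like, named for a relation to RpL24 (7, 1 and 1), had 2, 1 and 1, and RpLP0-like 1 in each tissue where RpLP0 had 6, 1 and 2.

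Absence under the gene's ID was not always absence from the assembly. RpL26 had 1 isoform in embryos and 1 in ovaries and none in heads, but in heads its start and an intron of it lay in a 3604 nt isoform filed under the neighbouring CG6843, and unspliced isoforms of 813 and 1304 nt without a FlyBase ID began at its 5′ end. RpL23A, with 4 isoforms in heads and 2 in embryos, had none in ovaries, where 3 isoforms filed under the snoRNA host gene Uhg7 shared its introns. RpL30, RpS18 and RpS25 had no isoform in embryos, and an embryo isoform of 3393 nt filed under ZnT86D shared introns of RpS25. In every tissue, isoforms filed under CG34164 shared introns of RpL7-like. Over all members, isoforms filed under another gene's FlyBase ID shared an intron with 6 members in heads (9 isoforms), 3 in embryos (3 isoforms) and 3 in ovaries (5 isoforms).

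A retained intron was present in 170 of 496 member isoforms on the annotated strand in heads, 14 of 109 in embryos and 36 of 157 in ovaries. This count of isoforms was not made over all genes. An intron was called retained where an exon of another isoform of the same gene held it whole with at least 10 nt on both sides. Of members with a spliced isoform, 61 of 83 had a retained intron in heads (73.5%, 63.1 to 81.8) against 56.2% of all genes, 11 of 79 in embryos (13.9%, 7.96 to 23.2) against 32.9%, and 28 of 81 in ovaries (34.6%, 25.1 to 45.4) against 17.3%. Against the short genes, members lay higher in all 3, also in embryos, with 73.8% against 34.4% in heads, 11.8% against 6.02% in embryos and 33.3% against 7.95% in ovaries. The order of tissues was the same as for the isoform counts. A retained intron can be called only in a gene with several isoforms. In heads 81 members and 6766 of all genes had several isoforms, and 61 and 5532 a retained intron. In embryos these were 18 and 2635, and 11 and 2012, and in ovaries 41 and 2176, and 28 and 1052. Among genes with several isoforms, members thus had one less often than all genes in heads and embryos, and more often in ovaries.

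Counted over introns, 162 of 280 were retained in heads (57.9%), 22 of 199 in embryos (11.1%) and 51 of 220 in ovaries (23.2%). Among the introns of all genes it was 43.1%, 18.1% and 6.89%. Of the 168 member introns retained in any tissue, 108 were retained in heads only, 34 in heads and ovaries, 9 in heads and embryos, 11 in all 3, 4 in ovaries only and 2 in embryos and ovaries, and none in embryos only. These 11 introns belonged to RpL3, RpL5, RpL10, RpL15, RpL37A and RpS9.

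Introns between coding exons led in heads, where 93 of 135 were retained (68.9%), against 11 of 130 in embryos (8.46%) and 26 of 133 in ovaries (19.5%). Introns in the 5′ UTR were retained in 43 of 83, 9 of 58 and 19 of 67 cases, and of the few in the 3′ UTR, 5 of 10 were retained in heads and none of 6 in either other tissue. A snoRNA lay in 66 of the introns in heads, of which 37 were retained (56.1%), against 125 of 214 without one (58.4%). In ovaries 17 of 50 introns with a snoRNA (34%) and 34 of 170 without (20%) were retained, and in embryos 8 of 45 (17.8%) and 14 of 154 (9.09%).

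Most retained coding introns put a stop codon in the reading frame. This held inside 77 of 93 retained coding introns in heads, 10 of 11 in embryos and 23 of 26 in ovaries. The same count was not made over introns of all genes or over member introns never retained. Retained coding introns had a median of 137 nt in heads, and the share of stops given by length alone was not tested. The lines below show 7 of them, with 9 bases of the exon before the intron and the intron up to the end of that stop codon, on the strand of the gene from the RefSeq copy of dm6. Capitals mark the first bases of the intron (GT or GC) and the stop codon.
RpL4 (chr3R:27923297-27923313, plus strand): agctggctgGTgagTAA
RpL5 (chr2L:22536438-22536545, minus strand): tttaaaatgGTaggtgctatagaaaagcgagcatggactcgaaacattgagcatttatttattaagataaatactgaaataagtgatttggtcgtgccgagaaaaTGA
RpL10 (chr3L:23094657-23094692, minus strand): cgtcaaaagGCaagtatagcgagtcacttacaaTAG
RpL37A (chr2L:5071149-5071172, plus strand): agcaaaatgGTatggctacctTAA
RpS5a (chrX:17145001-17145024, minus strand): gtcaaccagGTgggtttcttcTGA
RpS6 (chrX:7901234-7901251, minus strand): aatatgaagGTgtgcTAA
RpS27 (chr3R:25247412-25247441, minus strand): aacatgccgGTgggttccgaattgcgtTAA

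The RpL5 intron at chr2L:22536379-22536536 was retained in all 3 tissues, by 2 isoforms in heads and 1 in each of the others, and the frame stopped after 33 codons where the whole protein has 299. In RpL37A the intron at chr2L:5071158-5071226 was retained in heads and ovaries and ended the frame after 5 codons, and in RpS6, whose protein is the substrate of S6 kinase, the intron at chrX:7901008-7901242 ended it after 4. The RpL10 intron at chr3L:23093879-23094683, which begins with GC, was retained by 5 isoforms in heads and 3 in embryos and by none in ovaries, with a frame of 172 of 218 codons. The RpS5a intron at chrX:17144717-17145015 holds a snoRNA (snoRNA:Psi28S-2876) and was retained by 2 isoforms in heads, 1 in embryos and none in ovaries.

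RpL37A and RpL5 share with other members a start codon that stands alone in its exon, so that the intron directly follows the ATG. The annotation has this in 16 of 92 members (17.4%), against 1.1% of protein-coding genes, among them RpL3, RpL4, RpL14, RpL35, RpL39, RpS4, RpS18, RpS20 and RpS25. That intron was retained in 9 of the 16 in heads, in 1 of 14 in embryos (RpL5) and in 3 of 16 in ovaries (RpL5, RpL35 and RpL37A).

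A whole coding sequence was counted per isoform. In heads 266 of 496 member isoforms on the annotated strand (53.6%) held an annotated coding sequence whole, against 97 of 109 in embryos (89.0%) and 130 of 157 in ovaries (82.8%), and 47.5%, 62.1% and 82.9% of the isoforms of all genes. Of isoforms with a retained intron, 49 of 170 held it in heads (28.8%), 5 of 14 in embryos (35.7%) and 16 of 36 in ovaries (44.4%), and of those without one, 66.6%, 96.8% and 94.2%. A frame read from the annotated start codon ended early in 124 of those 170, 11 of 14 and 23 of 36 isoforms. In heads 64 isoforms without a retained intron reached their 3′ end with no stop codon in frame. The counts of stops, and those split by retained intron, were not made over isoforms of all genes.

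Nearly every member had a complete form in each tissue in which it was found. At least 1 isoform with a whole coding sequence was present for 85 of 87 members in heads, 80 of 80 in embryos and 81 of 82 in ovaries. The same count was not made over all genes. A 3′ UTR was measured on isoforms with the whole coding sequence in 84, 79 and 80 members. Among all genes this was so for 9535 of 11203 in heads, 5236 of 6472 in embryos and 5493 of 6638 in ovaries. The members without a whole coding sequence were RpL10Aa and RpL37-2 in heads and RpLP2, a protein of the ribosomal stalk, in ovaries. In each of them the isoform was on the opposite strand. The 3′ UTR was measured in fewer members than had a whole coding sequence, and RpL32 was measured in no tissue.

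**Figure D4:**
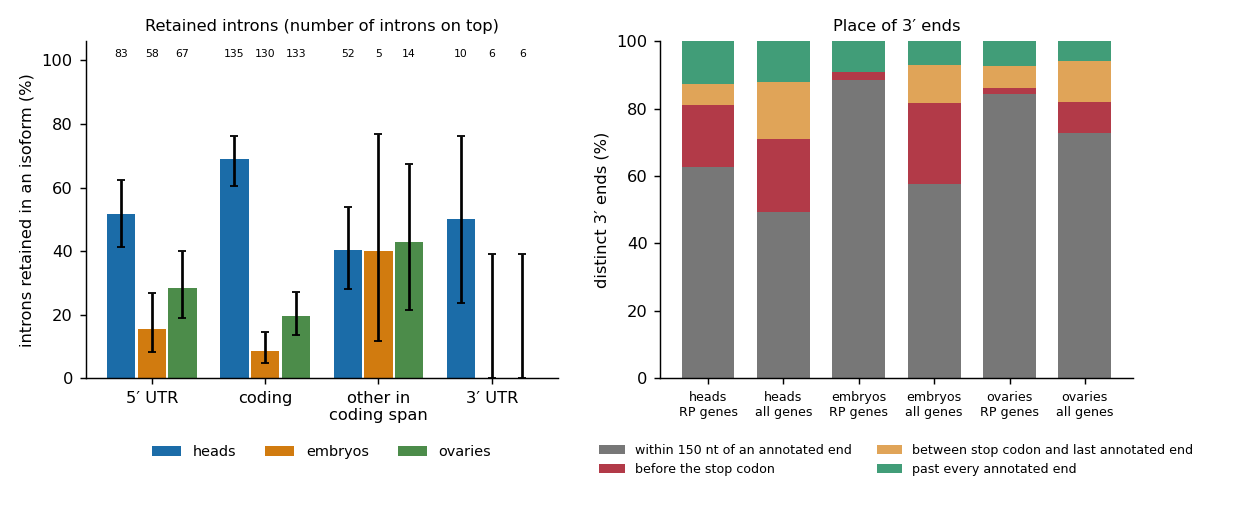
Left, share of member introns retained (y axis, percent, 95% Wilson intervals) by place in the gene and tissue, with 68.9% of coding introns in heads, 8.46% in embryos and 19.5% in ovaries. Right, place of distinct 3′ ends (y axis, percent of ends) of ribosomal protein genes and all genes in each tissue, with 62.8%, 88.6% and 84.3% of member ends within 150 nt of an annotated end in heads, embryos and ovaries.

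Poly(A) sites (PASs) followed the same order of tissues, and several PASs likewise need several isoforms. A PAS ended where the next 3′ end was over 150 nt away, and 66 of 87 members had several PASs in heads (75.9%, 65.9 to 83.6) against 37.6% of all genes, 7 of 80 in embryos (8.75%, 4.30 to 17) against 26.2%, and 14 of 82 in ovaries (17.1%, 10.5 to 26.6) against 17.2%. Against the short genes it was 75% and 19.1% in heads, 6.49% and 3.29% in embryos, and 15.2% and 4.08% in ovaries, so the background decided whether members lay above or below it in embryos. In heads 44 members had 2 PASs, 13 had 3, 5 had 4, 3 had 5, and RpL10 had 7. RpL3, RpL5, RpL10 and RpL27 had several PASs in every tissue. At a gap of 300 nt the count in heads was 32 members, against 29.9% of all genes. PASs here are groups of 3′ ends at any place in the gene, and they were not checked against the study's own filter on 3′ ends. In heads 46 of 253 distinct member ends lay before the stop codon, and members with several PASs were not counted without them.

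The place of these ends differed between tissues. Of 253 distinct member ends in heads, 62.8% lay within 150 nt of an annotated end, 18.2% before the stop codon and 12.6% past every annotated end. Of 88 in embryos it was 88.6%, 2.27% and 9.09%, and of 108 in ovaries 84.3%, 1.85% and 7.41%. All genes had 49.4%, 57.6% and 72.9% of their ends within 150 nt of an annotated end, 21.6%, 24.2% and 9.14% before the stop codon, and 11.9%, 7.01% and 5.93% past every annotated end. In heads the member shares of these last classes were thus near those of all genes.

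The poly(A) signal AATAAA was found in the 50 nt before 31.2% of the ends of members in heads, of 56.8% in embryos and of 44.4% in ovaries, against 34.6%, 40.6% and 43.8% for all genes. No member end before the stop codon had it (0 of 46 in heads), against 10.6% of such ends of all genes in heads. In heads it stood before 8 of 32 member ends past every annotated end (25%), against 39.7% for all genes. At least 12 A in the 20 nt downstream, where oligo(dT) could prime on the genome-encoded sequence, were found at 4.35%, 5.68% and 5.56% of member ends in heads, embryos and ovaries, against 6.36%, 8.30% and 6.31% for all genes. Their part in the ends was not tested.

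Over members, the longest 3′ UTR of isoforms with the whole coding sequence had a median of 240 nt for heads, 129 nt for embryos and 180 nt for ovaries, where all genes had 335, 378 and 297 nt. It was over 1000 nt in 7 of 84 members in heads (8.33%), against 20.7% of all genes and 7.89% of short genes. In embryos it was 4 of 79 (5.06%; RpL5, RpL10, RpL38 and RpS29) against 21.6% and 4.03%, and in ovaries 1 of 80 (1.25%; RpS29) against 9.54% and 1.32%. Members thus lay below all genes and near the short genes.

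Most distal 3′ ends were at the same place in most members. Among 77 members with overlapping last exons, the end was more than 150 nt farther in heads than in ovaries for 21 (27.3%) against 27.9% of all genes, and farther in ovaries for 2 (RpL7 by 375 nt and RpLP1 by 167 nt) against 2.19%. Against embryos it was farther in heads for 27 of 77 (35.1%) against 22.6% of all genes, and farther in embryos for RpS23, RpL10, RpL38 and RpL5 (5.19%) against 4.52%. The ends were within 1 nt of each other for 41 members between heads and embryos, 46 between heads and ovaries and 52 of 76 between embryos and ovaries. Such ends were not counted over all genes. The median difference was 0 nt for members and also for all genes, against embryos and against ovaries.

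**Figure D5:**
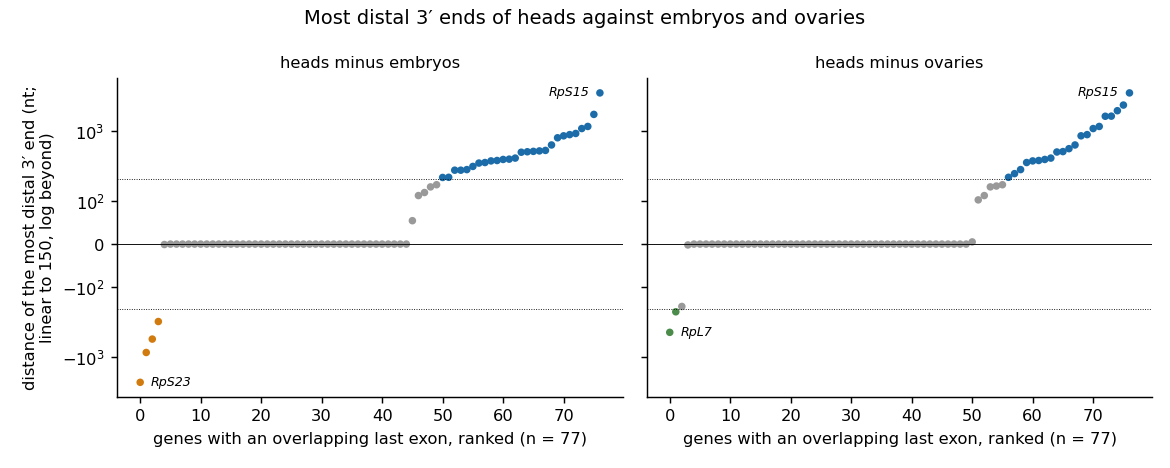
Distance in nt between the most distal 3′ ends of heads and embryos (left) and of heads and ovaries (right) for 77 ribosomal protein genes ranked by it, positive where heads reach farther, on an axis that is linear to 150 nt and logarithmic beyond. Dotted lines mark 150 nt, past which 27 genes were farther in heads than embryos, and 21 farther in heads than ovaries.

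The longest extensions in heads were carried by 1 or a few isoforms of short genes. In RpS15 the most distal end lay 4465 nt past the single end found in embryos and ovaries, in 1 of its 6 head isoforms, which was 5332 nt long and had a retained intron. On the 1 RpS15 head isoform measured with the whole coding sequence, the 3′ UTR was 146 nt, so it was not the extended one. In RpS15Aa the end at chrX:13333858 was used by 2 of 8 isoforms and lay 1916 nt past that of embryos and 1780 nt past that of ovaries. RpL13A (1192 nt), RpL31 (1097 nt), RpL21 (864 nt) and RpL14 (824 nt) had such an end in 1 isoform each, and the same single most distal end in both other tissues.

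RpS3A, the only member on chromosome 4, ended at 6 positions in heads, at 1 position in embryos and at 3 in ovaries. Its heads end at chr4:62208 lay 2767 nt past the most distal end in ovaries, and the common end at chr4:66198 was found in every tissue. RpL32 ended at chr3R:30045230 in all tissues, in 4 of its 7 head isoforms and in its only isoform elsewhere, and 1 head isoform ended at chr3R:30044887.

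RpL10, RpS23 and RpL5 had the longest extensions in embryos relative to ovaries, by 3044, 2683 and 2033 nt. Relative to heads these were 829, 2683 and 245 nt. The longest 3′ UTR of embryo isoforms with the whole coding sequence was 3567 nt in RpL10, 2984 nt in RpL5 and 75 nt in RpS23. The extended RpS23 isoform was thus not among those measured. The 5 RpL10 isoforms in embryos were 3750 to 4555 nt long and ended at 3 positions between 2006 and 3043 nt past the last annotated end, the most distal at chr3L:23090147. In ovaries the 7 isoforms were 763 to 1223 nt long and none ended past the annotation, and in heads 13 of 26 ended at chr3L:23093637, within 150 nt of an annotated end. Of the RpL10 isoforms, 2 of 5 in embryos, 5 of 7 in ovaries and 10 of 26 in heads held the coding sequence whole.

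RpL5 had 1 embryo isoform of 3940 nt that ended at chr2L:22531885, beyond the most distal ends in heads and ovaries. Its main end at chr2L:22534802 was used by 8 of 15 isoforms in heads, 2 of 3 in embryos and 3 of 7 in ovaries. The most distal end in heads, at chr2L:22532130, followed a genomic run of A, with 20 A in the last 20 bases. The last 30 bases before these ends, from the RefSeq copy of dm6, are given with AATAAA in capitals.
RpL5, main end (chr2L:22534802-22534831, minus strand): aAATAAATAAAcagttctaatgacaccagc
RpL5, distal end in heads (chr2L:22532130-22532159, minus strand): ttggacgacaaaaaaaaaaaaaaaaaaaaa
RpL5, distal end in embryos (chr2L:22531885-22531914, minus strand): atatacattccctattttgtacacttctca
RpL10, main end in heads (chr3L:23093637-23093666, minus strand): aatatacaaaattaccatttcctgagcaca
RpL10, distal end in embryos (chr3L:23090147-23090176, minus strand): gccaaatctatgtacatatcacaaAATAAA
RpS3A, common end (chr4:66198-66227, minus strand): aaaatacatttctctacaaattgcataaac
RpS3A, distal end in heads (chr4:62208-62237, minus strand): tAATAAATAAAtttcataagtgatttgaaa
RpL32, common end (chr3R:30045230-30045259, minus strand): gttaatataccggacttttagttaaaaaat

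Under its own ID, RpS29 had no isoform with its annotated end in embryos or ovaries. Its only embryo isoform, also present in heads, was 4415 nt long, held the RpS29 coding sequence and ran to chr3R:9783054, 3526 nt past the last annotated end and across the neighbouring CG12947, whose coding sequence it did not hold whole. Its only ovary isoform was 3186 nt long and ended at chr3R:9781708. The other 2 isoforms in heads ended near annotated ends, each with a retained intron and a frame of 93 codons where the annotation has 56.

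Over 3 kb, the size aimed at by selection, members had 10 of 499 isoforms in heads (2%), 9 of 109 in embryos (8.26%) and 1 of 158 in ovaries (0.633%), against 61.9%, 75.2% and 42.8% of all isoforms. Of the 9 in embryos, 5 belonged to RpL10 and 1 each to RpL5, RpS5a, RpS23 and RpS29. In RpS23, 1 of 2 embryo isoforms was 3917 nt long and ended 2683 nt past the most distal end in heads. What size selection contributed to these isoforms was not tested.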

How the data were processed

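Polyadenylated RNA of w1118 flies was sequenced as full-length cDNA on Oxford Nanopore devices after 14 PCR cycles with 12 min extension. According to the methods, the authors pooled the reads of each tissue, aligned these with minimap2 to dm6, corrected splice sites with short-read junctions and collapsed reads to isoforms with FLAIR, keeping 5′ ends listed by the Eukaryotic Promoter Database and a minimum of full-length reads, and annotated isoforms with SQANTI3. Use of the study's filter on 3′ ends for these assemblies: not given in the sources used here. According to the paper, that filter was aimed at ends likely due to internal priming or truncation. With 74482 isoforms, heads exceeded the total in the paper's filtered atlas of all tissues. Ends of the kind that the filter targets may therefore be among the PASs counted here, and their share was not tested. The deposited files held genomic positions of transcripts and exons, 1 assembly per tissue, and no counts or other expression values, so nothing was normalized and depth is unknown.

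Python 3.11.15 was used with numpy 2.4.6, scipy 1.17.1 and matplotlib 3.10.9. Gene models were those of Ensembl release 115, and sequence came from the RefSeq copy of the same assembly. Gaps of more than 50 nt between 5′ ends and of more than 150 nt between 3′ ends started another TSS and PAS. Splice sites within 10 nt and ends within these distances made isoforms identical. Backgrounds were all FlyBase gene IDs of an assembly that are in the annotation (11203 in heads, 6472 in embryos and 6638 in ovaries), and for sequence those on an arm of the genome with an isoform on the annotated strand. Scripts were tested on simulated data. The members and lists were chosen with earlier results of these data known. Named genes were the 10 members with most isoforms in heads, those absent from a tissue, paralogous pairs, and those with several TSSs or a retained intron in more than 1 tissue, and other genes were named after their values were seen. Of the members, 1 is counted but not reported here by name. No paired test and no p-value was computed.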

Additional observations from a re-analysis of the deposited data

How the results depend on the processing

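Under 86 alternatives of 17 results (56 planned and 30 chosen after seeing the data), 81 kept the value within 1.5 times for counts or within its Wilson interval for shares. With 300 nt instead of 150 nt between PASs, members with several PASs fell to 32 in heads, against 29.9% of all genes, and to 8 in ovaries, against 14.0%. With TCTTT sought within 10 nt instead of 5 nt of the TSS, the share of members was 57.6% in heads, 60% in embryos and 61.7% in ovaries, against 2.94%, 3.39% and 3.27% of all genes. The wider window or gap is by construction the cause. The added alternatives used the annotated strand only, added isoforms without a FlyBase ID that begin at a member's 5′ base, or kept only protein-coding genes with short transcripts. That restriction kept the member counts within 1.5 times but lowered the shares of all genes, in embryos from 26.2% to 3.29% for several PASs, from 32.9% to 6.02% for a retained intron and from 40.7% to 9.17% for several isoforms, so that members went from below to above the background. No paired analysis was possible because replicates were pooled before deposit, and for the same reason no library could be left out. Depth limits every absence: an isoform not listed in embryos or ovaries may have been below the minimum number of reads.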

Other observations

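Other genes of translation gave a comparison for the start sequences, again without a test. None of the mitochondrial ribosomal protein genes had TCTTT at the most upstream TSS (0 of 60 in heads, 0 of 50 in embryos and 0 of 67 in ovaries), which allows no statement on other letters there. All genes had 1.47%, 1.78% and 1.68%, so the mitochondrial genes lay near all genes. These shares of all genes are also the background of the lists below. Several isoforms were rarer in the mitochondrial genes than in members. Of 73 such genes, 67 were found in heads, 51 in embryos and 70 in ovaries, and 34, 1 and 1 had several isoforms. Among 8 translation elongation factor genes, found in 8, 6 and 7 cases with median isoform numbers of 10, 2 and 3, TCTTT was found in eEF2, which drives ribosome translocation, in all tissues. Of 26 initiation factor genes it was found in eIF4A, an RNA helicase, and eIF3m in all tissues and in eIF3i in embryos and ovaries. Of 13 ribosome biogenesis genes only Non1 had it, in heads and ovaries.

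Isoforms without a FlyBase gene ID began at the 5′ base of several members. In heads 57 isoforms without an ID did so at 41 members, and 23 of them were single exons that spanned a member's intron, at 20 members including RpL7, RpL12, RpL40, RpLP0 and RpS27A. In embryos 4 isoforms without an ID did so, 3 of them such single exons, and in ovaries 5, with 4 such single exons. They are not in the counts of retained introns above except in an alternative chosen after seeing the data, and their part in the tissue differences was not tested.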
